A study of Mus musculus with 6 samples.

Results

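The genes described here are 9 markers used to tell subsets of monocytes apart, out of 55327 gene rows in the deposited count table of muscle macrophages. They are Chil3, Ly6c1, Ly6c2, Ly6a, Ly6e, Cd177, Plac8, Ace and Treml4. Each was taken as the row whose symbol equals the name. The members were chosen by their role as markers and selected on the measured difference between the 2 genotypes in these same libraries, so that difference is given below as a description and carries no test for these 9 genes. All 9 passed the filter on low counts, which kept 14987 genes.

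The libraries came from macrophages sorted out of calf muscle 3 days after hindlimb ischemia, an injury that interrupts the blood supply of the leg. The wild-type group (WT, genotype label WT) and the knockout group (KO, genotype label pfkfb3-ko) had 3 libraries each. Pfkfb3 encodes an enzyme that promotes glycolysis, and the design text places its deletion in endothelial cells (EC), the cells that line blood vessels. All mice carried the strain label 129S1/Sv * 129X1/SvJ * C57BL/6 * CBA, and the protocol gives 1 mg of tamoxifen on each of 5 days, then a washout of at least 7 days. The labels name no driver of the deletion, no age, and no animal of origin for a library, so the spread between libraries may be partly technical.

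Monocytes leave the bone marrow as classical cells, which carry the surface protein Ly6C at a high level, enter injured muscle and become macrophages there. In the blood, some of them turn into non-classical cells, which lose Ly6C, patrol the vessel wall and depend on the nuclear receptor Nr4a1. Chil3, a chitinase-like secreted protein, Ly6c2, the main gene of monocyte Ly6C, and Plac8, a small cysteine-rich protein, mark the classical subset. Ace, the angiotensin-converting enzyme, and Treml4, a receptor of the TREM family, mark the non-classical subset. Ly6a (Sca-1), Ly6c1 and Ly6e encode lipid-anchored proteins of the Ly6 family that endothelial and other cells also carry, and Cd177 is a related surface protein of neutrophils and some monocytes.

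Library totals ranged from 18853712 to 29060584 counts. Levels are given as CPM, counts brought to a common library size after TMM scaling, a method that corrects for the few rows that take a large part of the reads. The 6 largest rows held 19.9% to 22.6% of the counts in WT and 40.6% to 52.6% in KO, so low genes were measured with fewer counts in KO. KO replicates 1 and 2 differ from the rest in sex type, with Xist (the RNA of the inactive X chromosome) at 154 and 170.4 CPM there against at most 0.465 CPM elsewhere. Pfkfb3 itself was at 70.7, 101 and 82.3 CPM in WT and at 55.5, 59.2 and 160 CPM in KO. If the deletion is endothelial, its level in macrophages does not check the labels. Of 12 macrophage genes, all measured in every library, 4 rose (Csf1r, C1qa, C1qb and C1qc) and 1 fell (Cd68). Over all tested genes, 4.39% rose and 2.25% fell, and the list counts below are to be read against these shares. Csf1r, the growth factor receptor of macrophages, rose from 851 ± 101 to 1762 ± 153 CPM (SD, n = 3 each; edgeR adjusted p = 0.010) and was not called once WT replicate 2 or KO replicate 1 or 2 was omitted (as high as 0.075). C1qa, a complement gene, rose from 438 ± 42.4 to 1513 ± 190.5 CPM (edgeR adjusted p = 0.0013), and C1qb was not called once KO replicate 2 was omitted (0.056). Cd68, a lysosomal protein gene, fell from 792 ± 78.8 to 474 ± 75.3 CPM (edgeR adjusted p = 0.034) and was called in only 1 leave-out fit, that without KO replicate 3 (otherwise as high as 0.13).

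Ly6c1 and Ly6c2 lie on chromosome 15 (GRCm38, minus strand), Ly6c1 at 75044018 to 75048830 and Ly6c2 at 75108158 to 75111970. Ly6e (74955051 to 74959905, plus strand) and Ly6a (74994877 to 74998031, minus strand) lie on the same chromosome, before both. Their coding sequences are shown because a read can be assigned to one or the other gene only where they differ. Both are 396 bases long and differ at 9 positions, an identity of 97.7%, and the longest stretch without a difference is 188 bases. The stretches that hold the differences are printed, bases 1 to 80 and 239 to 396 of each coding sequence, and capitals mark the bases that differ (GENCODE M21 transcripts, GRCm38, minus strand).
Ly6c1, first stretch: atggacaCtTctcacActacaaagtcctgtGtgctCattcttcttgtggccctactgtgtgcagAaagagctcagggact
Ly6c2, first stretch: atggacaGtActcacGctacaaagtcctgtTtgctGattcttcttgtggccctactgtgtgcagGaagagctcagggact
Ly6c1, second stretch: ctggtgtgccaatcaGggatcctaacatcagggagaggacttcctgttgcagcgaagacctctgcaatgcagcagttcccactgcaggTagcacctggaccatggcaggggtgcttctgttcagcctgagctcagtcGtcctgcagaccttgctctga
Ly6c2, second stretch: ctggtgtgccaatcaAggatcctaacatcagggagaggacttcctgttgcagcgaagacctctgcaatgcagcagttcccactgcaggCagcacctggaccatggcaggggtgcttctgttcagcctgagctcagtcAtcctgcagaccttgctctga

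Of all 50-base stretches in the annotated transcripts, 32.8% of those of Ly6c1 and 14.4% of those of Ly6c2 also occur in transcripts of another gene, each other among them. The share was 19% for Ly6a, 5.51% for Cd177 and 26.9% for Chil3, whose close relative Chil4 has a coding sequence of 94.4% identity. Ly6e, Plac8, Ace and Treml4 share none. How reads that fit several genes were counted is not given in the sources used here, so the split between Ly6c1 and Ly6c2 is uncertain. Ace shares 5.58% of its exonic length with an antisense gene, Gm11651, and the strand setting of the counting is not given either.

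RefSeq promoter windows (GRCm38.p6; 250 bases before to 50 bases after a start site) were found for 7 of the 9 genes, all but Ly6a and Ly6e. Those of Ly6c2, Ly6c1 and Chil3 are shown because these 3 genes are among those that were low together in KO. Capitals mark GAGGAAGT, the core letters of sites bound by ETS factors such as the myeloid factor PU.1, and TATAAA, the TATA box, each searched on both strands. They occur in 3.28% and 14.2% of the first windows of 27025 genes.
Ly6c2, chr15:75111922-75112221, minus strand: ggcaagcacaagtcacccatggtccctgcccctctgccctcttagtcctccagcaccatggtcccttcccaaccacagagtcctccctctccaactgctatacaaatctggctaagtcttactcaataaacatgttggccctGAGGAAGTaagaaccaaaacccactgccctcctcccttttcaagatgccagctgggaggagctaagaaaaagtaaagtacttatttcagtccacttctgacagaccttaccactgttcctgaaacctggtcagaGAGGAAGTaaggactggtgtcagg
Ly6c1, second listed window, chr15:75048614-75048913, minus strand: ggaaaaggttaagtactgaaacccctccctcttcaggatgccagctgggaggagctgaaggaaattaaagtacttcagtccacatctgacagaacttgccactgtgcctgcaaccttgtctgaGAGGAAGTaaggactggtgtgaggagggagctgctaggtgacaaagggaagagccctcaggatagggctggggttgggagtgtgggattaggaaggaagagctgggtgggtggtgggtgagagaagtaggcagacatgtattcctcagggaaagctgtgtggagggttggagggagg
Chil3, chr3:106167515-106167814, minus strand: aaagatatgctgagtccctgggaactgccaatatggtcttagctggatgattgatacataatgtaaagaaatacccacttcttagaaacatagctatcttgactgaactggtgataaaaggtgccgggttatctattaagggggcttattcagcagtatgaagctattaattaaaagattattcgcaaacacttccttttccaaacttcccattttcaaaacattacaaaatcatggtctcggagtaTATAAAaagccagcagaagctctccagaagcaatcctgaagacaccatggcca

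The Ly6c2 window held the ETS letters at 2 places, beginning at positions -108 and 27 from the start site, and the printed Ly6c1 window at 1 place, position -127. The first listed window of Ly6c1, the kind counted in the background shares, held no ETS letters and held TATAAA at position -143. The Chil3 window held TATAAA beginning at position -3. In windows not printed, TATAAA also began at position -40 for Cd177 and, on the other strand, at -31 for Ace. The letters AAAGGTCA (the NR4A site) were found in none of the windows of the 7 genes, and TTGCNNAA (the C/EBP site) in the second window of Plac8 alone. Over all genes, AAAGGTCA occurs in 1.46% and TTGCNNAA in 10.8% of first windows. These are matches of letters and say nothing about binding.

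Chil3 (chromosome 3, 106147554 to 106167564, minus strand) had 1837, 3364 and 2262 counts in WT replicates 1 to 3 and 80, 50 and 82 counts in KO replicates 1 to 3. Its level was 71.1, 92.1 and 66.3 CPM in WT and 4.26, 3.56 and 5.28 CPM in KO. Every KO library lay far below every WT library, and the libraries within a group were close, with the highest WT value 1.39 times and the highest KO value 1.48 times the lowest. The means were 76.5 ± 13.7 and 4.37 ± 0.864 CPM (SD, n = 3 each), a fitted log2 fold change of -4.13 (SE 0.21). Relative to other myeloid genes, Chil3 per Csf1r was 0.0901 ± 0.0133 in WT and 0.00252 ± 0.000731 in KO, and Chil3 per Ccr2, the chemokine receptor of classical monocytes, was 0.237 ± 0.0609 and 0.0223 ± 0.00361. Csf1r itself rose and Ccr2 fell in KO, so the first ratio widens the difference and the second narrows it. In bulk libraries fewer cells of a type and less RNA per cell cannot be told apart. Chil3 is also widely used as a gene of alternatively activated macrophages, a state driven by interleukin 4. Of 13 tested genes of that list, 1 rose and 1 fell, against 4.39% and 2.25% of all tested genes. Retnla, another classic gene of this state, averaged 1.45 ± 1.27 CPM in WT against 6.00 ± 2.72 CPM in KO (edgeR adjusted p = 0.089). Arg1, encoding arginase, was at 93.8 ± 84.8 and 20.7 ± 6.24 CPM (adjusted p = 0.052). Retnla was called higher without WT replicate 1 (0.036) or KO replicate 3 (0.048), and Arg1 lower without WT replicate 1 (0.042) or WT replicate 3 (0.049). The riser was the lectin gene Clec10a, from 17.5 ± 2.83 to 45.0 ± 8.16 CPM (adjusted p = 0.0060), and the gene that fell was the transcription factor Klf4, from 196 ± 63.8 to 80.6 ± 10.0 CPM (adjusted p = 0.015), which was not called once KO replicate 1 (0.060) or 2 (0.068) was omitted.

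Ly6c2 was a low gene in all libraries, with 49, 105 and 56 counts in WT and 3, 0 and 6 counts in KO. Its level was 1.90, 2.87 and 1.64 CPM in WT and 0.160, 0 and 0.386 CPM in KO. A count of 0 in KO replicate 2 allows a level of up to 0.214 CPM (3 counts). Ly6c1 had 41, 41 and 26 counts in WT and 1, 3 and 0 counts in KO, or 1.59, 1.12 and 0.762 CPM in WT and 0.0532, 0.214 and 0 CPM in KO. For both genes the groups did not overlap, yet the KO values rest on a total of 9 counts for Ly6c2 and 4 for Ly6c1. Summed over the libraries of a group and divided by the scaled sizes, the KO level was 8.55% of the WT level for Ly6c2 (exact 95% interval 3.86% to 16.5%) and 7.39% for Ly6c1 (1.98% to 19.5%). These intervals and limits cover counting error only. The share of Ly6c2 in the counts of the pair was 54.4% (exact Clopper-Pearson 95% interval 43.6% to 65.0%), 71.9% (63.9% to 79.0%) and 68.3% (57.1% to 78.1%) in WT replicates 1 to 3. In KO the pair had 13 counts in all, of which 69.2% were Ly6c2 (38.6% to 90.9%), so a shift between the 2 genes was not detectable at this depth.

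Cd177 (chromosome 7, 24743983 to 24760311, minus strand) had 146, 181 and 153 counts in WT and 2, 1 and 5 counts in KO. Its level was 5.65, 4.95 and 4.48 CPM in WT, the tightest of the 9 WT groups, and 0.106, 0.0712 and 0.322 CPM in KO. The groups lay wide apart, and the summed KO level was 3.33% of the WT level (exact 95% interval 1.43% to 6.61%, counting error only). Since neutrophils carry Cd177, their markers stand beside it. Of 18 genes on the neutrophil list, 6 passed the filter. Of these, 1 fell and 1 rose (Mmp8 and Mmp9), against 2.25% and 4.39% of all tested genes. The summed level of the list was 68.7 to 100.2 CPM in WT and 93.9 to 313 CPM in KO. The largest part of the sum was Csf3r, the G-CSF receptor gene, in WT (33.8 to 57.6 CPM) and in KO replicate 3 (67.8 CPM), and Mmp9, which macrophages also express, in KO replicates 1 and 2. Mmp9 was at 268, 162 and 18.9 CPM in KO and was called in only 1 leave-out fit, that without KO replicate 3 (otherwise an adjusted p as high as 0.15). Mmp8, averaging 10.7 ± 4.68 CPM in WT against 2.33 ± 1.00 CPM in KO, was not called once WT replicate 2 or KO replicate 1 or 2 was omitted (as high as 0.075). Of the defining neutrophil genes, Ly6g, Elane, Cxcr1 and Stfa2l1 were at 0 counts in all 6 libraries. S100a9 was at no more than 0.293 CPM in WT and at 0 counts in KO, and S100a8 at 2.28, 0.848 and 0.879 CPM in WT and 0.160, 0.214 and 0.386 CPM in KO (adjusted p = 0.058). The part of neutrophils in the Cd177 difference was not tested.

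**Figure D1:**
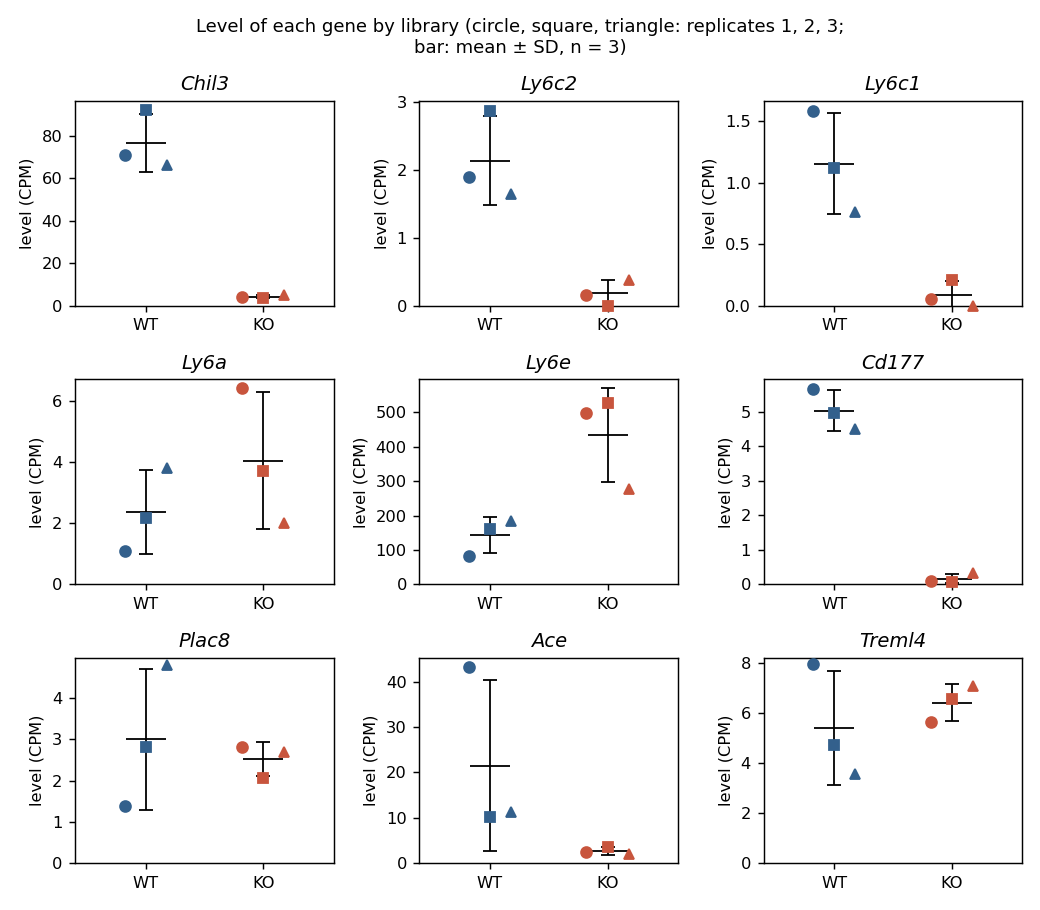
Level of each of the 9 genes in CPM on an axis from 0, by group, with 1 symbol per library (circle, square and triangle for replicates 1, 2 and 3) and the mean ± SD of 3 libraries. Chil3, Cd177, Ly6c1, Ly6c2 and Ace lay lower in every KO library than in any WT library, Ly6e lay higher, and the groups of Ly6a, Plac8 and Treml4 overlapped.

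Plac8, the third marker of classical monocytes, did not share this pattern. It had 36, 103 and 164 counts in WT and 53, 29 and 42 counts in KO, or 1.39, 2.82 and 4.81 CPM in WT and 2.82, 2.07 and 2.70 CPM in KO. All 3 KO values lay inside the WT range, in which the highest library was 3.45 times the lowest. The fitted log2 fold change was -0.25 (SE 0.44). The summed KO level was 81.6% of the WT level (exact 95% interval 65.7% to 101%), an interval for counting error only that leaves out the spread between libraries. Plac8 is also a gene of B cells and plasmacytoid dendritic cells. Of 10 genes on the B cell list, only 2 passed the filter. Of these, 1 rose, against 4.39% of all tested genes. It was Ighm, an antibody heavy chain gene, which rose from 23.6 ± 2.93 to 60.9 ± 6.90 CPM (edgeR adjusted p = 0.0024). The list summed to 23.1 to 29 CPM in WT and 59.3 to 72.9 CPM in KO. Most of this sum was Ighm itself, at 20.45 to 26.25 CPM in WT and 53.86 to 67.65 CPM in KO. The part of such cells in the Plac8 level was not tested.

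Ly6a and Ly6e, the other Ly6 members, did not follow Ly6c1 and Ly6c2. Ly6a, the Sca-1 antigen of stem, endothelial and connective tissue cells, had 28, 80 and 130 counts in WT and 121, 52 and 31 counts in KO, or 1.08, 2.19 and 3.81 CPM in WT and 6.44, 3.70 and 1.995 CPM in KO. The groups overlapped, and the spread within each group was more than 3-fold (3.51 in WT, 3.23 in KO). Ly6e, which takes part in the response to interferon and in virus entry, was the highest of the 9 genes in KO, with 2165, 5862 and 6302 counts in WT and 9354, 7416 and 4287 counts in KO. Its level was 83.8, 160.4 and 185 CPM in WT and 498, 528 and 276 CPM in KO. KO replicate 3, the only KO library of the same sex type as WT, stood closest to WT. The means were 143 ± 52.6 and 434 ± 138 CPM (SD, n = 3 each), a fitted log2 fold change of 1.6 (SE 0.33). Without KO replicates 1 and 2 the log2 fold change was 0.89. The part of sex type in the Ly6e difference was not tested. The ratio of Ly6e to Ly6a was 66.4 ± 15.6 in WT and 119 ± 36.5 in KO.

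Since interferons raise Ly6a and Ly6e, a list of 20 interferon-stimulated genes was measured beside them. Of these, 1 rose, or 5%, against 4.39% of all tested genes. It was Ifi44, which rose from 1.53 ± 1.05 to 7.56 ± 1.84 CPM (edgeR adjusted p = 0.041). Ifi44 was not called once WT replicate 2 or 3 or KO replicate 1 or 2 was omitted (as high as 0.15). The median log2 fold change of the list was 0.61, against 0.01 over all tested genes, and 6 of the 20 did not overlap between groups, all higher in KO, against 31.5% of all tested genes in either direction and 16.8% upward. The list summed to 216 to 994 CPM in WT and 1021 to 1073 CPM in KO. WT replicate 1 stood apart, as the lowest WT library for each of the 20 genes: Irf7, a transcription factor of this response, was at 12.3 CPM there and at 50.1 and 79.0 CPM in WT replicates 2 and 3, against 179, 188 and 151 CPM in KO. It was also the lowest WT library for Ly6e, whose log2 fold change without it was 1.33. Of the list of fibro-adipogenic progenitors, connective tissue cells of muscle that carry Ly6a, 5 of 10 tested genes rose, against 4.39% of all tested genes. The list's sum was 446 to 602 CPM in WT and 426 to 734 CPM in KO, most of it Gsn, an actin-binding protein gene of many cell types, at 433 to 560 CPM in WT and 289 to 547 CPM in KO. Of the tested genes that did not pass, Pdgfra, the defining receptor, averaged 0.340 ± 0.170 CPM in WT against 0.736 ± 0.409 CPM in KO (edgeR adjusted p = 0.33), Dcn 0.845 ± 0.261 against 1.44 ± 0.704 CPM (0.37) and Pi16 1.97 ± 0.344 against 0.896 ± 0.325 CPM (0.13). Col1a1, a collagen gene, rose from 7.60 ± 5.63 to 73.0 ± 14.8 CPM (adjusted p = 0.0084), and Dpt, a matrix protein gene, from 0.188 ± 0.0490 to 1.62 ± 0.298 CPM (adjusted p = 0.010). The log2 fold change of Col1a1 moved from 3.25 to 4.01 without WT replicate 3, and Dpt was not called once WT replicate 2 (0.058) or KO replicate 2 (0.052) was omitted. The part of these lists in the Ly6a and Ly6e levels was not tested.

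The 2 markers of non-classical monocytes went apart. Ace (chromosome 11, 105967945 to 105989964, plus strand) had 1115, 366 and 381 counts in WT and 45, 49 and 31 counts in KO, or 43.2, 10.0 and 11.2 CPM in WT and 2.4, 3.49 and 1.995 CPM in KO. The groups did not overlap, and WT replicate 1 alone was 4.31 times the lowest WT library. The fitted log2 fold change was -3.03 (SE 0.59), and -2.02 without WT replicate 1. Treml4 (chromosome 17, 48264295 to 48275360, plus strand) had 206, 172 and 122 counts in WT and 106, 92 and 110 counts in KO, or 7.98, 4.71 and 3.57 CPM in WT and 5.64, 6.55 and 7.08 CPM in KO. All 3 KO values lay inside the WT range, at a fitted log2 fold change of 0.25 (SE 0.31), or -0.37 when library sizes are used without a scaling factor. Ace per Treml4 was 5.41, 2.13 and 3.12 in WT and 0.425, 0.533 and 0.282 in KO.

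Ace is also abundant on endothelial cells. Of 24 genes on the endothelial list, 7 fell, against 2.25% of all tested genes. The list summed to 144 to 263 CPM in WT and 44.7 to 90.6 CPM in KO. Its median log2 fold change was -1.94, against 0.01 over all tested genes. None of the 24 was at 0 in all libraries. WT replicate 1 was the highest library for Pecam1 (21.9, 8.98 and 10.3 CPM in WT, 5.11, 4.2 and 2.51 CPM in KO) and for Cdh5 (30.4, 14.9 and 15.7 CPM in WT, 6.17, 6.05 and 2.51 CPM in KO), as it was for Ace. Both adhesion genes fell (edgeR adjusted p = 0.032 and 0.020); Pecam1 was not called once WT replicate 1 or any one KO library was omitted (as high as 0.11) and Cdh5 once KO replicate 1 or 2 was omitted (as high as 0.069). Kdr, a VEGF receptor gene, averaged 12.4 ± 0.95 CPM in WT against 12.3 ± 5.53 CPM in KO (adjusted p = 0.99). It was highest in KO replicate 1, at 16.29 CPM. Other genes of the list did not peak in WT replicate 1 either: Vwf was at 18.24, 21.15 and 17.58 CPM in WT, and Plvap at 1.045, 4.269 and 3.457 CPM. Ace per Pecam1 was 1.97, 1.12 and 1.09 in WT and 0.469, 0.831 and 0.795 in KO. The part of endothelial RNA in the Ace difference, and in that of Ly6c1, was not tested.

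**Figure D2:**
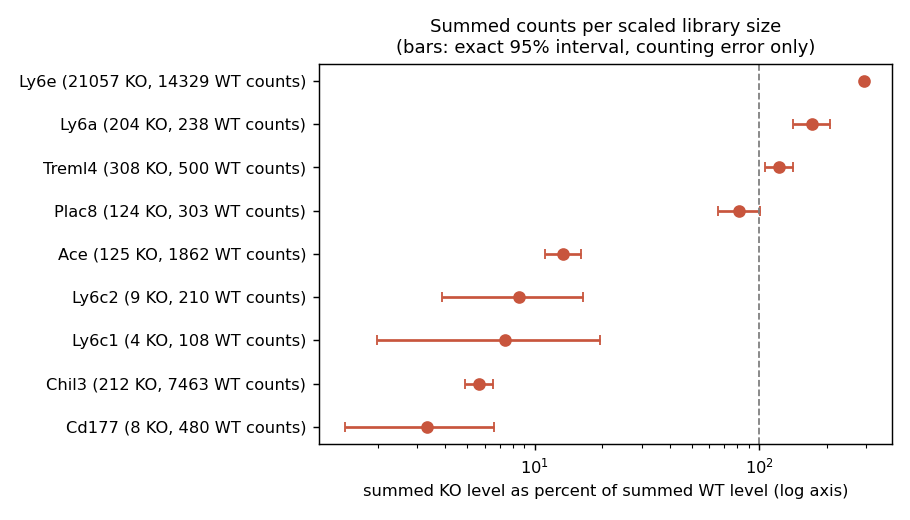
Level of each gene summed over the 3 KO libraries as a percent of that over the 3 WT libraries (log axis), with the exact 95% interval for counting error and the counts behind it. Cd177, Chil3, Ly6c1, Ly6c2 and Ace lay between 3.33% and 13.4%, Plac8, Treml4 and Ly6a between 81.6% and 171%, and Ly6e at 293%.

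Per kilobase of exon, Chil3 led the 9 genes in WT at 46.9 ± 8.40 CPM per kilobase, followed by Ly6e at 37.8 ± 13.9, which did not differ from it beyond the spread. Ace followed at 4.06 ± 3.56, Treml4 at 2.71 ± 1.14, Ly6a at 1.96 ± 1.14, Plac8 at 1.89 ± 1.08, Cd177 at 1.77 ± 0.207, Ly6c2 at 0.780 ± 0.237 and Ly6c1 at 0.690 ± 0.247 (SD, n = 3 each). The genes from Ace to Cd177 lay within each other's spread, as did Ly6c2 and Ly6c1. In KO Ly6e stood first, at 115 ± 36.4 CPM per kilobase, and the next were Ly6a at 3.36 ± 1.86, Treml4 at 3.22 ± 0.364 and Chil3 at 2.68 ± 0.529, whose spreads overlap. Plac8 (1.59 ± 0.255) and Ace (0.497 ± 0.146) came after these, and Ly6c2, Cd177 and Ly6c1 were under 0.1 CPM per kilobase.

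Of the 9 genes, 5 were lower in KO with no overlap between groups and 1 was higher, against 14.7% and 16.8% of all tested genes. The same 5 and 1 passed an adjusted p of 0.05 in the fit over all genes, where 337 genes (2.25%) passed lower and 658 (4.39%) higher, 6.64% in all. With 1 library left out, Chil3 and Cd177 passed in 6 of 6 fits, Ace in 4, Ly6e in 3, and Ly6c1 and Ly6c2 in 1 each. Because the genes were picked with this contrast known, nothing is read from these counts. Omitting KO replicate 3 gave a log2 fold change of -4.50 for Ly6c2 (-3.50 with all libraries) and -5.71 for Cd177 (-4.88), and omitting KO replicate 2 gave -5.12 for Ly6c1 (-3.70). The omitted libraries held 6 of the 9 KO counts of Ly6c2, 5 of the 8 of Cd177 and 3 of the 4 of Ly6c1. With both KO replicates 1 and 2 left out, the log2 fold change was -3.91 for Chil3, -4.00 for Cd177, -3.47 for Ace, -2.51 for Ly6c2, 0.89 for Ly6e, -0.31 for Ly6a, -0.22 for Plac8 and 0.34 for Treml4. That fit leaves only KO replicate 3 in the KO group, so effect sizes alone are given for these genes. Ly6c1 had 0 counts in the remaining KO library, so its fitted value there gives no fold.

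**Figure D3:**
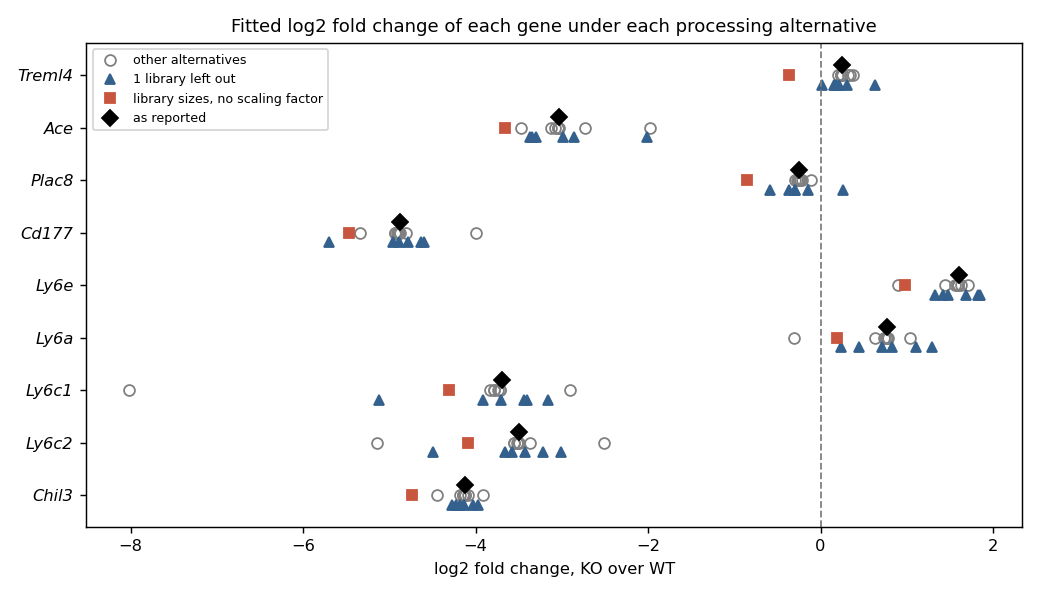
Fitted log2 fold change (KO over WT) of each gene as reported (diamond), with 1 library left out (triangles), with library sizes and no scaling factor (square) and under the other processing alternatives (circles). Chil3 stayed between -4.73 and -3.91, and the values of Ly6a, Plac8 and Treml4 lay on both sides of 0, while the lowest Ly6c1 value rests on 0 KO counts.

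Other genes known as markers of classical monocytes were tested one by one in the same fit. Of 30, 7 fell and 2 rose, against 2.25% and 4.39% of all tested genes, and their median log2 fold change was -0.43, against 0.01 over all genes. Fn1, which encodes fibronectin, fell from 2868 ± 1249 to 478 ± 83.3 CPM (SD, n = 3 each; edgeR adjusted p = 0.0034). Vcan, encoding the matrix proteoglycan versican, fell from 29.7 ± 9.58 to 5.31 ± 2.65 CPM (adjusted p = 0.012). F10, coagulation factor X, fell from 24.7 ± 11.4 to 6.31 ± 0.976 CPM (adjusted p = 0.012) and was not called once KO replicate 2 was omitted (0.057). Ccr2, which brings monocytes out of the marrow, fell from 333 ± 72.5 to 196 ± 12.6 CPM (adjusted p = 0.033), and was not called once WT replicate 1 or 2 or KO replicate 1 or 2 was omitted (as high as 0.15). The genes that rose were the membrane protein genes Tmem176a, from 11.0 ± 6.95 to 76.6 ± 5.99 CPM (adjusted p = 0.0077), and Tmem176b, from 40.1 ± 23.2 to 192 ± 7.62 CPM (adjusted p = 0.010). The log2 fold change of Tmem176a was 2.81, or 3.42 without WT replicate 1. The number that fell was 3 to 8 with 1 library left out (3 without WT replicate 2, KO replicate 1 or KO replicate 2, 4 without WT replicate 1 or 3), 4 without both KO replicates 1 and 2, and 12 with DESeq2.

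Of 27 tested markers of non-classical monocytes (28 listed), 3 rose and 3 fell, against 4.39% and 2.25% of all tested genes. Their median log2 fold change was 0.01. The lectin receptor genes Clec4a1 and Clec4a3 rose, from 36.6 ± 2.27 to 73.1 ± 7.66 CPM (edgeR adjusted p = 0.0055) and from 29.1 ± 4.52 to 56.3 ± 6.27 CPM (adjusted p = 0.012). Fcgr4, an Fc receptor of non-classical monocytes, rose from 14.0 ± 3.07 to 25.9 ± 4.11 CPM (adjusted p = 0.035). Clec4a3 was not called once WT replicate 2 or KO replicate 1 or 2 was omitted (as high as 0.074), and Fcgr4 once WT replicate 1 or 3 or KO replicate 1 or 2 was omitted (as high as 0.16). The genes that fell were the scavenger receptor Cd36, from 555 ± 55.4 to 194 ± 30.2 CPM (adjusted p = 0.0022), the adhesion gene Ceacam1, from 20.1 ± 6.09 to 5.25 ± 1.45 CPM (adjusted p = 0.0084), and the transcription factor Klf2, from 139 ± 47.4 to 68.2 ± 3.95 CPM (adjusted p = 0.029). Klf2 was not called once WT replicate 3 or KO replicate 1 or 2 was omitted (as high as 0.11). Nr4a1, which non-classical monocytes need, averaged 402 ± 214 CPM in WT against 295 ± 33.7 CPM in KO (adjusted p = 0.46). The fractalkine receptor Cx3cr1 was at 274 ± 85.6 and 406 ± 27.2 CPM (adjusted p = 0.17) and Spn, encoding CD43, at 45.9 ± 11.1 and 98.0 ± 37.4 CPM (adjusted p = 0.060, or 0.0084 without KO replicate 3). The integrin gene Itgal was at 56.6 ± 30.2 and 73.4 ± 2.70 CPM (adjusted p = 0.58). With 1 library left out, 1 to 4 of the list rose (1 without KO replicate 1 or 2) and 2 to 3 fell.

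**Figure D4:**
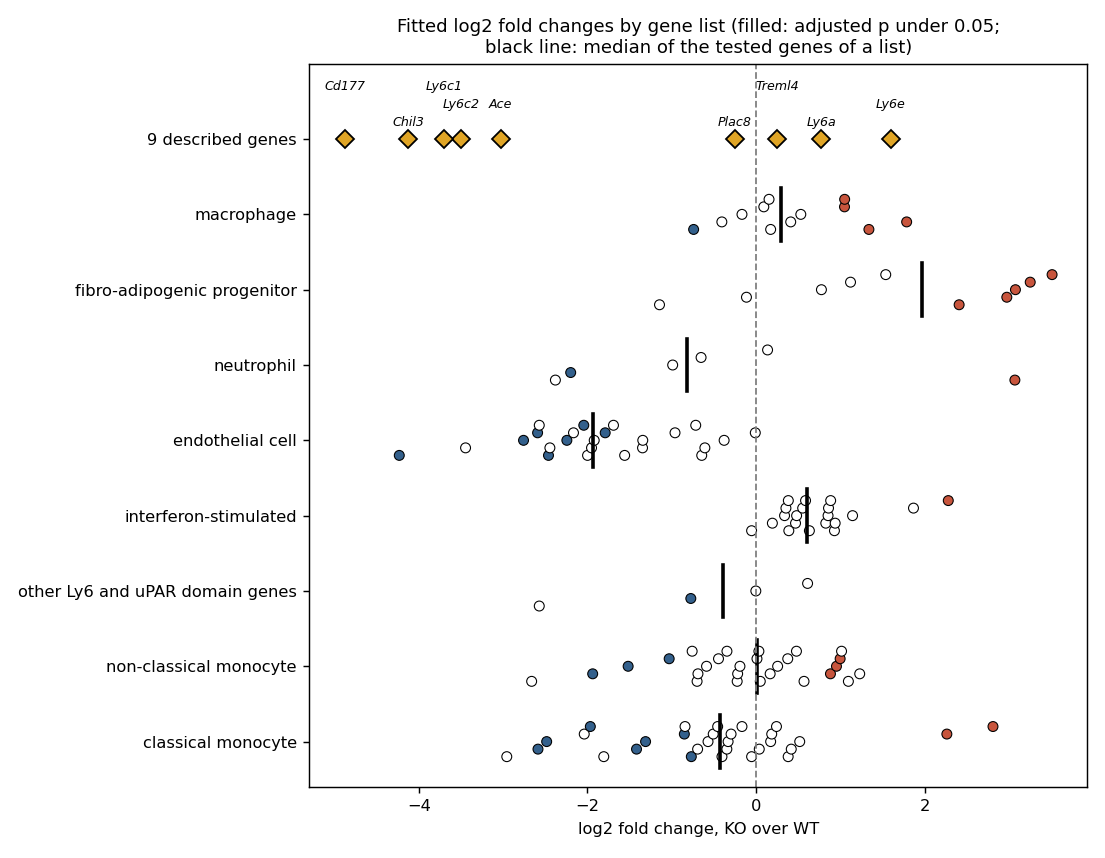
Fitted log2 fold change (KO over WT) of the 9 described genes (diamonds) and of the tested genes of 8 lists (circles; filled where the adjusted p was under 0.05, blue for lower and red for higher in KO), with the median of each list as a black line. The classical list has 7 filled points on the lower side and 2 on the higher side, the non-classical list 3 on each, and the endothelial list 7 on the lower side.

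Among relatives of the 9 genes, few were expressed. Of 36 listed other genes with Ly6 or uPAR domains, 4 passed the filter and 1 fell, against 2.25% of all tested genes. It was Plaur, the urokinase receptor, which fell from 102 ± 20.6 to 59.8 ± 0.709 CPM (edgeR adjusted p = 0.024). Plaur was not called once WT replicate 2 or KO replicate 1 or 2 was omitted (as high as 0.10). Gpihbp1, which holds lipoprotein lipase on capillary endothelium, was at 3.18, 0.766 and 0.879 CPM in WT and 0.426, 0.214 and 0.129 CPM in KO (adjusted p = 0.076), and Cd59a, a complement inhibitor, at 2.78 ± 0.350 and 4.22 ± 1.24 CPM (adjusted p = 0.26). Ly6i, a further Ly6 gene, had 4 to 10 counts in each library. Chil4, the closest relative of Chil3, had 4, 0 and 2 counts in WT and 0 in each KO library, and Chil1 had 1 to 18 counts. Of 6 tested genes of the TREM list, 4 receptors and the adaptor genes Tyrobp and Hcst, 1 rose, against 4.39% of all tested genes. It was Treml2, a receptor of B cells, neutrophils and macrophages, which rose from 5.46 ± 0.562 to 13.6 ± 1.84 CPM (adjusted p = 0.0077). Trem2, a lipid-sensing receptor of macrophages, was at 155 ± 28.5 and 228 ± 46.5 CPM (adjusted p = 0.11). Of 6 tested genes of the angiotensin and kinin pathway, 2 rose, against 4.39% of all tested genes. They were the peptidases Anpep, from 175 ± 23.3 to 314 ± 52.7 CPM (adjusted p = 0.023), and Enpep, from 0.331 ± 0.0708 to 1.72 ± 0.245 CPM (adjusted p = 0.016), opposite in direction to Ace. Anpep was not called once WT replicate 2 or 3 or KO replicate 1 or 2 was omitted (as high as 0.13) and Enpep once WT replicate 2 or KO replicate 1 or 2 was omitted (as high as 0.088).

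To place Chil3 and Ace among all genes, profiles of log2(CPM + 0.5) over the 6 libraries were centred on each gene's mean and compared by their root mean square distance, over 10019 genes with a mean of at least 50 counts. The genes most like Chil3 were Cd177 (distance 0.49), Cd24a, a surface glycoprotein gene (0.74), Rgcc, a cell cycle regulator of endothelium (0.83), Fn1 (0.88) and F7, coagulation factor VII (0.91). Cd177 shared with Chil3 the small spread among the WT libraries, while Cd24a was at 111 CPM in WT replicate 1 and at 47.2 and 33.5 CPM in the other WT libraries. The genes most like Ace were Ptprb, the vascular endothelial phosphatase (0.24), Adgrf5, an adhesion receptor (0.35), Igfbp3, which binds insulin-like growth factors (0.35), Fn1 (0.36) and the VEGF receptor gene Flt1 (0.36). Each of these 5 was highest in WT replicate 1: Ptprb was at 24.4, 6.10 and 7.77 CPM in WT and at 1.92, 2.56 and 1.87 CPM in KO. Among the 9 genes themselves, the closest pairs were Chil3 and Cd177 (0.49), Ly6c1 and Ly6c2 (0.52) and Ly6a and Ly6e (0.56), and the most distant pair was Chil3 and Ly6e (2.86). These distances describe 6 libraries whose main difference is the group, and the pseudocount narrows them for low genes.

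**Figure D5:**
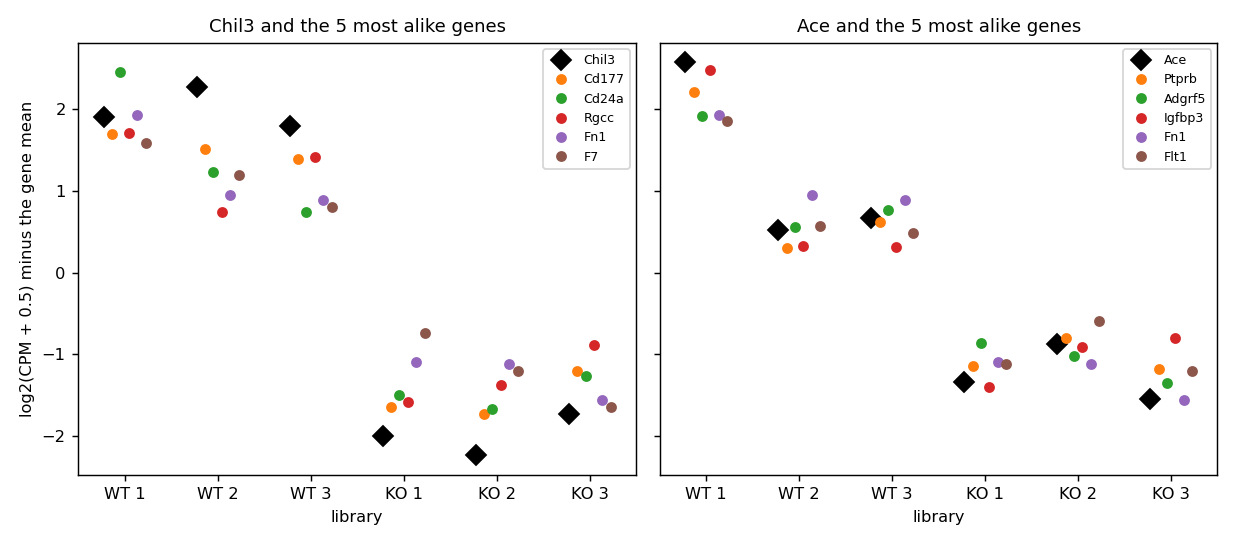
Centred log2(CPM + 0.5) of Chil3 (left, black diamonds) and of Ace (right, black diamonds) in each of the 6 libraries, with the 5 genes of smallest root mean square distance (circles). Around Ace all genes shown peak in WT replicate 1, while Chil3 is highest in WT replicate 2.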

How the data were processed

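The table the authors deposited holds raw counts, 1 column for each library. GRCm38 as build and, with no version or role, HISAT2, featureCounts, Trim Galore, FastQC and DESeq are named per the submitters' processing notes. For annotation, strand setting and multiply fitting reads, the sources used here give nothing. Of 55353 rows, 26 whose symbol had become a calendar date were left out. Library totals were 18853712 to 29060584 counts.

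Groups followed the genotype label. KO was compared with WT over all 6 libraries by edgeR 4.0.16 (R 4.3.3): filterByExpr, TMM scaling and the two-sided quasi-likelihood test with Benjamini-Hochberg adjustment over 14987 genes; rose and fell mean an adjusted p under 0.05. Tests on a simulated set recovered 79% of changes of 2 on the log2 scale and 49% of changes of 1. Its counts varied by the trend over all genes, without the spread of single genes or outlying libraries. Recovery in the real data may therefore be lower. Alternatives were other scalings and filters, left-out or summed libraries, a block, protein-coding genes alone, DESeq2 1.42.0 and limma-voom (limma 3.58.1). Exonic lengths and positions came from GENCODE M21 (GRCm38), matched on the symbol. The 9 genes, the gene lists and the tests were chosen with earlier results of these data known. Named list genes were up to 3 called genes per direction by smallest p, plus a fixed set, some of which are not reported here; genes most like Chil3 and Ace were the 5 nearest by profile.

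For completeness, the lists not described above gave these counts. Of 2 tested chitinase relatives edgeR called 0 (0 at an unadjusted p under 0.05, 0 with DESeq2 and with limma-voom). Of 10 dendritic cell genes it called 0, with 3 at an unadjusted p under 0.05, 1 by DESeq2 and 3 by limma-voom, all higher. Of 2 T and NK cell genes it called 0, with 1 at an unadjusted p under 0.05, 1 by DESeq2 and 2 by limma-voom, all lower.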

Additional observations from a re-analysis of the deposited data

How the results depend on the processing

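The number of called genes was 995 (337 lower and 658 higher), between 189 and 1652 with 1 library left out, 149 without both KO replicates 1 and 2, 282 with these summed, 6305 with library sizes alone (6004 lower and 301 higher; the median log2 change over the table is then -0.60), 1957 with no count filter, 1870 with DESeq2 and 4850 with limma-voom. In the classical monocyte list the 7 lower genes became 3 to 8 with 1 library left out, 4 without KO replicates 1 and 2, 3 with these summed, 19 with library sizes alone and 12 each with no filter, DESeq2 and limma-voom. The 2 higher genes became 0 without KO replicates 1 and 2 and 4 with limma-voom. In the non-classical list the 3 lower genes became 14 with library sizes alone, 5 with no filter and 1 without KO replicates 1 and 2, and 2 to 3 with 1 library left out. The 3 higher genes became 0 with library sizes alone, 7 with no filter, 0 without KO replicates 1 and 2, 1 with these summed, 5 with DESeq2, 8 with limma-voom and 1 to 4 with 1 library left out. Of the other Ly6 and uPAR domain genes, the 1 lower gene became 2 with library sizes alone, no filter or DESeq2, 0 without KO replicates 1 and 2 or with these summed, and 0 to 1 with 1 library left out. The cause of these moves was not tested. The leave-outs have fewer libraries, and the fit without KO replicate 3 called 1652 genes, against 995 with all libraries.

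The title endings are shared between groups, but same-ending libraries did not deviate together (correlations of 0.0233, -0.0544 and -0.0825 over genes). With the ending as a replicate block, 267 genes were called in all, 3 classical genes lower and 0 other Ly6 genes lower. Of the described genes, Chil3 and Cd177 passed there, and Ly6c1, Ly6c2, Ly6e and Ace no longer did. The described genes were picked with this contrast known, so nothing is read from which of them passed.

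Of the 3 described genes whose groups overlap, Ly6a turned lower without KO replicates 1 and 2 (-0.31), Treml4 with library sizes alone (-0.37), and Plac8 higher without WT replicate 3 (0.26). For Ly6c1, Ly6c2 and Cd177, the 4, 9 and 8 counts in KO limit precision.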
